A study of Mus musculus with 32 samples.

Results

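The miR-29 family was described in small RNA sequencing of mouse mesenteric arteries, the small vessels that supply the gut. Its members were taken by name: every row of the deposited table for miR-29a, miR-29b or miR-29c, on either arm of the hairpin. The table held 8 such rows, which came to 7 distinct small RNAs out of 1030 distinct rows in all. The duplicate was miR-29b-3p, listed once for each of its hairpins, and its 2 rows differed by at most 0.719% and by at most 9 reads in any library. The highest-mean row was kept.

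The 4 groups were 7-day Ang II, 7-day sham, 14-day Ang II and 14-day sham, with 8 libraries each. All were male C57BL/6J wild-type mice aged 10 to 12 weeks. Ang II mice received angiotensin II, a peptide that constricts vessels and raises blood pressure, under the skin at 1000 ng/kg/min, and sham mice did not. The labels give 10 mice per group and 1 mouse number per library, so the spread reported here is between animals. Perivascular fat and veins had been removed, and the whole artery wall was extracted.

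MicroRNAs are short RNAs that pair with messenger RNAs through a seed near their 5′ end and lower the output of those messages. The 3p strands of the miR-29 family are known for targeting messages of the extracellular matrix, among them fibrillar collagens, elastin and fibrillin, which give an artery wall its stiffness and recoil. The 5p strand of each hairpin is the less abundant partner of the duplex and carries another seed. Messenger RNAs and proteins were not part of these data, so no collagen level was measured here.

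The mature sequences are shown because one shared seed defines the 3p strands and a few other bases tell them apart. They are from RefSeq for GRCm38.p6, written 5′ to 3′, and the capitals mark the seed, bases 2 to 8. All 7 mature names matched an entry.
miR-29a-3p: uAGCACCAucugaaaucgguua
miR-29b-3p: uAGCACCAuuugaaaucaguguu
miR-29c-3p: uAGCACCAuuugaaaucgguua
miR-29a-5p: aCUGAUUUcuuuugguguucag
miR-29c-5p: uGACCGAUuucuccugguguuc
miR-29b-1-5p: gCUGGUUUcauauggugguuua
miR-29b-2-5p: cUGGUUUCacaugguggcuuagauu

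The seed AGCACCA occurred in exactly 3 of 1679 mature names in the RefSeq table, and those were the 3 members printed first. With positions counted from 1 at the 5′ end, miR-29a-3p and miR-29c-3p were equal at 21 of 22 positions and differed by C10U. Relative to miR-29c-3p, miR-29b-3p carried G18A, U21G and A22U and was 23 bases long. That altered 3′ end of miR-29b is known from human cells as a signal for import into the nucleus. The 4 5p strands held 4 different seeds. Because miR-29a-3p and miR-29c-3p differ by a single base, the split of reads between them depends on how mismatches were treated upstream, which is not given in the sources used here.

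The 4 hairpins lie in 2 pairs. On the minus strand of chromosome 6, Mir29b-1 (chr6:31063023-31063093) and Mir29a (chr6:31062660-31062747) are separated by 275 bases. On the plus strand of chromosome 1, Mir29b-2 (chr1:195037040-195037120) and Mir29c (chr1:195037547-195037634) are separated by 426 bases. In the GENCODE annotation the chromosome 1 pair lies within an exon of a retained-intron transcript of the noncoding gene A330023F24Rik, on the same strand. It also lies opposite the untranslated part of an exon of Cd46, which is read from the other strand. Mir29b-1 overlaps the noncoding gene Gm27019 by 2 bases, and Mir29a overlaps no other annotated gene.

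The hairpins of miR-29b are printed to show why its 3p reads cannot be assigned to a chromosome, with the mature 3p strand in capitals.
Mir29b-1: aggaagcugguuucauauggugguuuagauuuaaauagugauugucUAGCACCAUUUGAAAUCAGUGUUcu
Mir29b-2: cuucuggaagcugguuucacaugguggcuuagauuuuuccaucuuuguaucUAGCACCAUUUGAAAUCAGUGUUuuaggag

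Both hairpins give the same 23-base 3p strand, whereas their 5p strands differ, so the 5p rows were the only ones that named the locus of origin. Over all 32 libraries 283 reads were assigned to miR-29b-2-5p and 93 to miR-29b-1-5p, a ratio of 3.04.

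The libraries held 11.4 to 18.8 M reads in distinct rows (M, mega). The deposited values have no stated unit. They are whole multiples of a step particular to each library, and since they lie near the scale of reads per M they are called normalised RPM, or RPM, here. Of the 1030 distinct rows, 543 averaged 1 RPM or more and were tested. Before any group comparison, the libraries themselves fell along one strong axis. The first principal component (PC1) of the deviations from group means, computed without the miR-29 rows, held 35.45% of the variance, with no library between scores of -4.79 and 1.02. In all, 19 libraries scored above 0 (3 of 7-day Ang II, 5 of 7-day sham, 6 of 14-day Ang II and 5 of 14-day sham). The other 13 scored below 0 (5 of 7-day Ang II, 3 of 7-day sham, 2 of 14-day Ang II and 3 of 14-day sham). They are called PC1-high and PC1-low libraries here, and neither is a group of the study.

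The summed level of 4 contractile smooth muscle miRNAs, of the miR-143 and miR-145a hairpins, ran from 196039 to 521087 RPM in PC1-high libraries, with a median of 377465 RPM. In PC1-low libraries it ran from 453962 to 739444 RPM, with a median of 644720 RPM. Nearly all of that sum is miR-143-3p, at a mean of 474093 RPM. The summed level of the 2 endothelial miR-126a strands had medians of 18197 RPM in PC1-high and 27023 RPM in PC1-low libraries. The median sum of 6 epithelial miRNAs was 1541 RPM in PC1-high and 2380 RPM in PC1-low libraries, and that of 3 pancreatic acinar miRNAs was 165 RPM in PC1-high and 266 RPM in PC1-low libraries. Not every marker sum was lower in PC1-high libraries. The red blood cell median was 892 RPM in PC1-high and 663 RPM in PC1-low libraries, and that of striated muscle 1056 and 864 RPM. Medians were closer for leukocytes (835 RPM in PC1-high, 790 RPM in PC1-low) and neurons (215 and 224 RPM). The liver miRNA was low in both (0.390 and 0.472 RPM). In bulk tissue, fewer cells of a type and less RNA per cell cannot be told apart.

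The 3p strands differed widely in level. miR-29a-3p had 624765 reads over the 32 libraries and a mean of 1090 RPM, which ranked 46 of 1030 rows. miR-29c-3p followed with 96026 reads, a mean of 173 RPM and rank 96. miR-29b-3p had 34074 reads, a mean of 62.8 RPM and rank 152, so the member with 2 hairpins was the lowest of the 3p strands.

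The 3p order was the same in every library. miR-29a-3p made up 73.2 to 85.7% of the summed 3p level, miR-29c-3p 10.7 to 17.9% and miR-29b-3p 3.02 to 8.90%. Their ranges did not overlap. The 3 strands together were 0.0540 to 0.339% of a library's reads in distinct rows.

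The 5p strands were far lower. miR-29c-5p averaged 5.32 RPM (rank 352) and miR-29a-5p 1.96 RPM (rank 482), and these were the 2 tested 5p members, so 5 of 7 members were tested. miR-29b-2-5p, at 0.511 RPM, and miR-29b-1-5p, at 0.162 RPM, did not reach the 1 RPM minimum. miR-29b-1-5p had no read in 7 libraries and at most 3 reads in 20 of 32. In RPM, 3 reads came to between 0.0888 and 0.351. That floor takes in counting error only, because the libraries carried no molecular identifiers to set PCR copies apart.

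**Figure D1:**
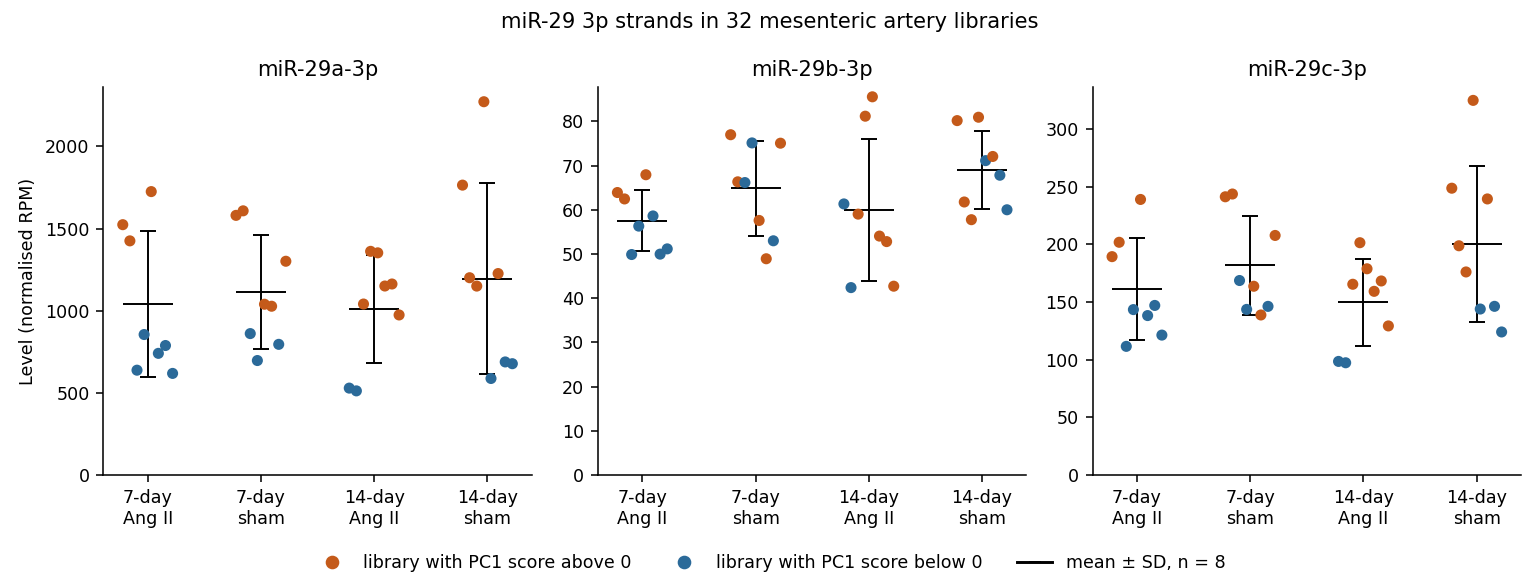
Levels of the 3 miR-29 3p strands (y axis, normalised RPM, starting at 0) in the 4 groups of 8 libraries (x axis); points are libraries, coloured by the sign of the PC1 score, and bars are mean ± SD. The Ang II and sham groups overlap for each strand, and for miR-29a-3p the 19 PC1-high libraries sit between 974 and 2272 RPM, above all 13 PC1-low libraries at 513 to 861 RPM. The share of all rows that separate in this way was not counted.

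The question at 7 days was whether Ang II altered the family early. No member passed the test: limma called 0 of 5 members at a Benjamini-Hochberg adjusted p under 0.05, against 0.184% of all 543 rows tested (1 row). An unadjusted p under 0.05 was reached by 1 of 5 members and by 37 rows in all. The edgeR quasi-likelihood test and DESeq2 on recovered reads also called 0 members. All 5 log2 fold changes were below 0, with a median of -0.18, while over all rows the median was -0.01 and 53.4% were below 0.

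Among the matrix-targeting 3p strands, miR-29a-3p ran from 619 to 1725 RPM in 7-day Ang II, with a median of 822 RPM. In 7-day sham it ran from 697 to 1608 RPM, with a median of 1034 RPM. The groups overlapped, with 2 of 8 Ang II libraries below and 1 above every sham library, and 5 of 8 below the sham median. The means were 1039 ± 443 RPM with Ang II and 1114 ± 348 RPM in sham (SD, n = 8 each), a log2 fold change of -0.15 ± 0.28 (SE, limma, 95% interval -0.72 to 0.42, adjusted p = 0.953). The direction was not stable to the libraries' PC1 position: with the sign of PC1 as a term the log2 fold change was 0.11, within the PC1-high libraries it was 0.27 (3 Ang II and 5 sham), and within the PC1-low libraries -0.11 (5 and 3).

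miR-29c-3p ran from 112 to 239 RPM in 7-day Ang II, with a median of 145 RPM, and from 139 to 244 RPM in 7-day sham, with a median of 166 RPM. Of the Ang II libraries 3 lay below every sham library and none above. The log2 fold change was -0.18 ± 0.19 (SE, limma, adjusted p = 0.938). It was 0.10 within the PC1-high libraries, -0.21 within the PC1-low libraries and -0.02 with the sign of PC1 as a term.

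miR-29b-3p varied least of the tested members over all 32 libraries, by 2.02 times between lowest and highest. It ran from 49.9 to 67.9 RPM in 7-day Ang II, with a median of 57.5 RPM. In 7-day sham it ran from 48.9 to 77.0 RPM, with a median of 66.2 RPM. Of the 8 Ang II libraries 7 were below the sham median, but none was below every sham library. The log2 fold change was -0.16 ± 0.13 (SE, limma, adjusted p = 0.861).

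Of the 5p strands, miR-29a-5p ran from 0.739 to 2.16 RPM in 7-day Ang II, with a median of 1.36 RPM. In 7-day sham it ran from 1.61 to 3.03 RPM, with a median of 2.11 RPM. Here 5 of 8 Ang II libraries lay below every sham library and 7 of 8 below the sham median. It had a log2 fold change of -0.36 ± 0.12 (SE, limma, 95% interval -0.60 to -0.11) and ranked 8 of 543 by p, but with an adjusted p = 0.373 it did not pass over all rows tested. The value moved with the method, from -0.08 with a pseudocount of 10 to -0.66 with voom (limma, adjusted p = 0.0645), and it was -0.49 with edgeR and -0.51 with DESeq2. With the sign of PC1 as a term the log2 fold change was -0.30. It was -0.15 within the PC1-high libraries (3 Ang II and 5 sham) and -0.45 within the PC1-low libraries (5 and 3). This strand rested on 8 to 109 reads per library.

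miR-29c-5p ran from 2.34 to 6.04 RPM in 7-day Ang II, with a median of 4.92 RPM, and from 4.42 to 7.06 RPM in 7-day sham, with a median of 5.13 RPM. The lowest 3 Ang II libraries lay below every sham library, and the medians were close. Its log2 fold change was -0.24 ± 0.15 (SE, limma, adjusted p = 0.812).

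At 14 days the same question was asked after longer infusion. Again limma called 0 of 5 members, against 6.45% of all 543 rows (35 rows). An unadjusted p under 0.05 was reached by 1 of 5 members and by 140 rows, and edgeR and DESeq2 called 0 members. The members' median log2 fold change was -0.23, with 4 of 5 below 0, beside 0.00 (49.9% below 0) over all rows. Among the 280 rows that averaged 10 RPM or more, the median was -0.09. Scaling by library totals alone, which moved the median of all rows to 0.23, placed miR-29a-3p at 0.088 and miR-29b-3p at 0.035, while miR-29c-3p (-0.12) and miR-29c-5p (-0.11) remained below 0.

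miR-29c-3p had the largest difference of the 5 at 14 days. It ran from 97.4 to 201 RPM in 14-day Ang II, with a median of 162 RPM, and from 124 to 325 RPM in 14-day sham, with a median of 187 RPM. Of the 8 Ang II libraries 7 were below the sham median, and 3 sham libraries were above every Ang II library. The means were 149.8 ± 37.8 RPM with Ang II and 200.3 ± 67.5 RPM in sham (SD, n = 8 each).

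The log2 fold change of miR-29c-3p was -0.39 ± 0.19 (SE, limma, 95% interval -0.79 to 0.0015, adjusted p = 0.192). The value was -0.49 within the PC1-high libraries (6 Ang II and 5 sham) and -0.49 within the PC1-low libraries (2 and 3). With the sign of PC1 as a term it was -0.47 ± 0.12 and fell under the threshold (limma, adjusted p = 0.0149), where 80 of 543 rows did. That term was taken from deviations from group means in these same libraries. It removes spread within groups by construction, so adjusted p values with it are descriptions and not valid tests. Over 13 alternative settings, fits within PC1 or series subsets left out, the adjusted p of miR-29c-3p ran from 0.0149 to 0.846. Only the PC1 term brought it under 0.05. Among mice whose number begins with 26, the one series with enough libraries per arm (5 Ang II and 6 sham), the log2 fold change was -0.59 (limma, adjusted p = 0.258).

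miR-29c-5p, from the same hairpin, ran from 2.67 to 6.24 RPM in 14-day Ang II, with a median of 5.23 RPM. In 14-day sham it ran from 5.15 to 8.40 RPM, with a median of 6.26 RPM. All 8 Ang II libraries were below the sham median, the highest only just (6.24 against 6.26 RPM), and 4 of them were below every sham library. Its log2 fold change was -0.33 ± 0.15 (SE, limma, 95% interval -0.63 to -0.03, adjusted p = 0.160). It was -0.40 within the PC1-high libraries and -0.14 within the PC1-low libraries. Both arms of this hairpin were thus lower on average, and neither passed the test.

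miR-29a-3p ran from 513 to 1361 RPM in 14-day Ang II, with a median of 1096 RPM, and from 588 to 2272 RPM in 14-day sham, with a median of 1175 RPM. The groups overlapped, apart from 2 Ang II libraries below and 2 sham libraries above the other group. The log2 fold change was -0.18 ± 0.28 (SE, limma, 95% interval -0.75 to 0.39, adjusted p = 0.727). With the sign of PC1 as a term it was -0.31 ± 0.13 (limma, adjusted p = 0.0960), the lowest adjusted p over 13 settings, which ran to 0.902.

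miR-29b-3p ran from 42.4 to 85.6 RPM in 14-day Ang II, with a median of 56.5 RPM, and from 57.8 to 80.9 RPM in 14-day sham, with a median of 69.5 RPM. Of the Ang II libraries 4 lay below every sham library and 2 above every one, so the Ang II group was the wider. Its log2 fold change was -0.23 ± 0.13 (SE, limma, adjusted p = 0.249). The low Ang II libraries at 52.8 and 42.7 RPM came from mice whose numbers begin with 30, a series found only in 14-day Ang II. With the mouse-number series as a term the log2 fold change was -0.13 (limma, adjusted p = 0.553).

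miR-29a-5p ran from 1.85 to 3.23 RPM in 14-day Ang II, with a median of 2.09 RPM, and from 1.60 to 2.34 RPM in 14-day sham, with a median of 2.01 RPM. Its log2 fold change of 0.13 ± 0.12 (SE, limma, adjusted p = 0.511) was the only positive one among the 5, with 4 of 8 Ang II libraries below the sham median.

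**Figure D2:**
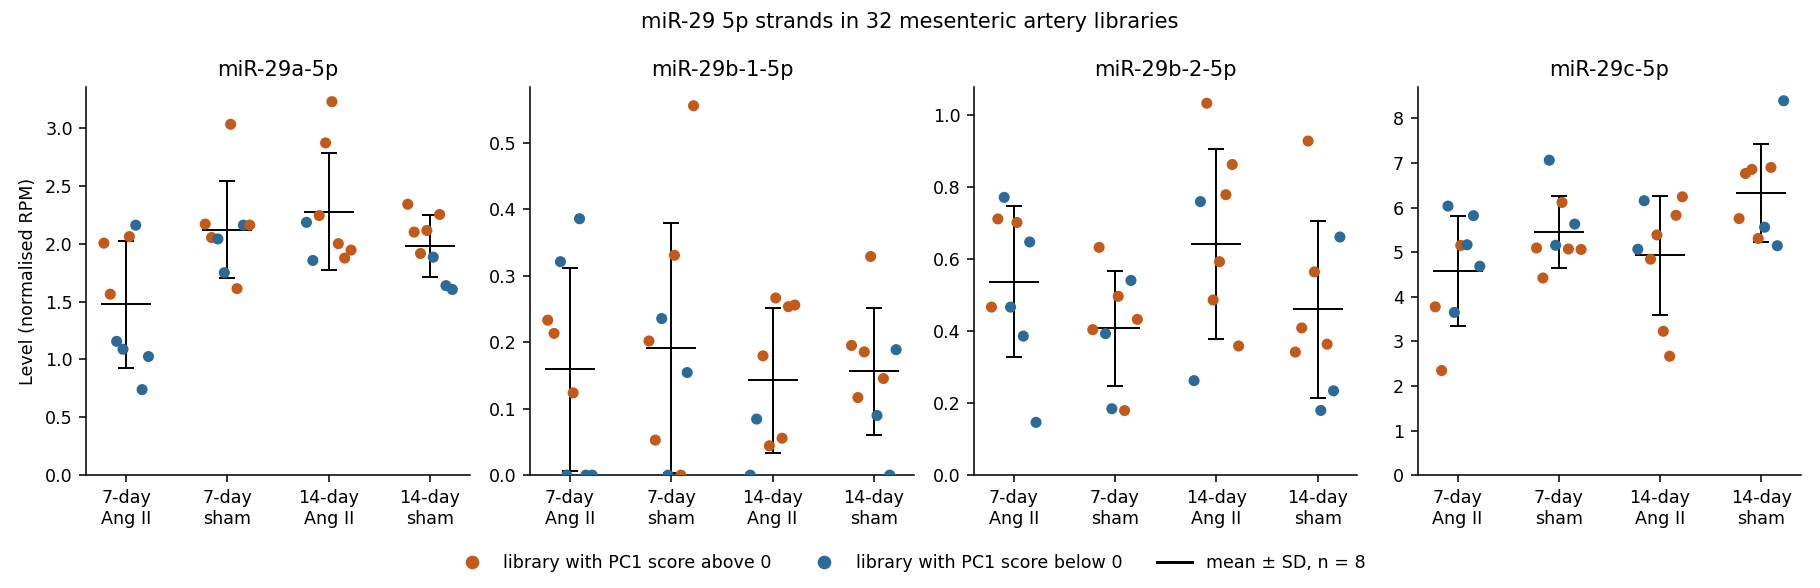
Levels of the 4 miR-29 5p strands (y axis, normalised RPM, starting at 0, with its own scale per panel) in the 4 groups of 8 libraries (x axis); points are libraries, coloured by the sign of the PC1 score, and bars are mean ± SD. For miR-29a-5p 5 of 8 7-day Ang II libraries lie below every 7-day sham library. For miR-29c-5p all 8 14-day Ang II libraries lie below the sham median, the highest of them only just. miR-29b-1-5p is at 0 in 7 libraries.

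The 2 untested miR-29b 5p strands allowed only a description. At 7 days miR-29b-2-5p averaged 0.537 ± 0.210 RPM with Ang II against 0.407 ± 0.160 RPM in sham, and at 14 days 0.641 ± 0.263 RPM with Ang II against 0.460 ± 0.246 RPM in sham (SD, n = 8 each). At each time 6 of 8 Ang II libraries were above the sham median, on 2 to 23 reads per library. With no minimum level, over 1030 rows, limma gave log2 fold changes of 0.12 at 7 days and 0.17 at 14 days (adjusted p = 0.909 and 0.413). miR-29b-1-5p ran from 0 to 0.386 RPM in 7-day Ang II and from 0 to 0.556 RPM in 7-day sham. At 14 days it ran from 0 to 0.266 RPM with Ang II and from 0 to 0.329 RPM in sham, so the groups could not be told apart at this depth.

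Averaged over both times, the Ang II effect was below 0 for all 5 tested members, with a median log2 fold change of -0.20 beside -0.03 over all rows (52.5% below 0). Among the 280 rows that averaged 10 RPM or more, the median was -0.08. Under library totals alone, which moved the median of all rows to 0.11, miR-29a-5p stood at 0.0041. limma called 0 of 5 members, against 7.37% of all rows (40 rows), and edgeR and DESeq2 called 0 as well. An unadjusted p under 0.05 was reached by 3 of 5 members and by 26.2% of all rows.

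Those 3 were miR-29c-5p, miR-29b-3p and miR-29c-3p. miR-29c-5p had a log2 fold change of -0.28 ± 0.11 (SE, limma, adjusted p = 0.0852). miR-29b-3p had -0.20 ± 0.09 (limma, adjusted p = 0.170) and miR-29c-3p -0.29 ± 0.14 (adjusted p = 0.184). miR-29c-5p passed with the mouse-number series as a term (-0.34, limma, adjusted p = 0.0474), while its adjusted p ran to 0.5262 over 11 settings. With the sign of PC1 as a term, where the adjusted p is a description only, it was at -0.30 (limma, adjusted p = 0.0318).

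miR-29c-3p fell under the threshold with the PC1 term (-0.25, limma, adjusted p = 0.0365), again a description, where 129 rows did. Its adjusted p ran to 0.841 over 12 settings. The most abundant member, miR-29a-3p, was at -0.17 ± 0.20 (limma, adjusted p = 0.630).

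**Figure D3:**
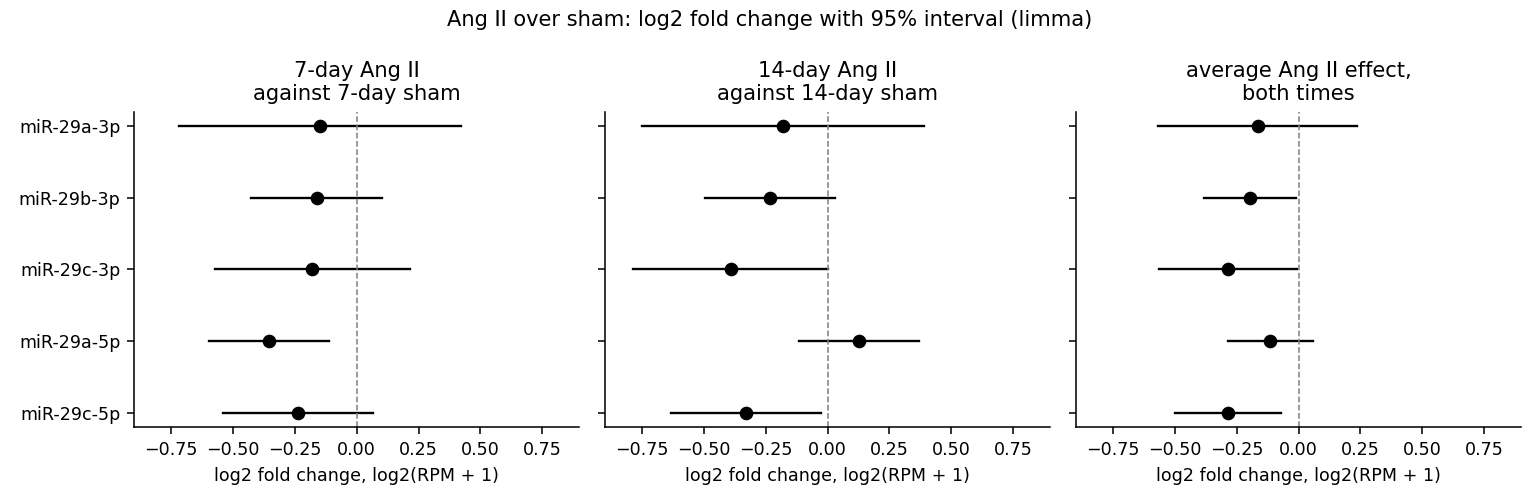
Log2 fold change of Ang II over sham on the log2(RPM + 1) scale (x axis) for the 5 tested members (y axis) at 7 days, at 14 days and averaged over both; points are limma estimates and lines 95% intervals. Every estimate is below 0 except that of miR-29a-5p at 14 days (0.13), and miR-29a-3p has the widest intervals, from -0.72 to 0.42 at 7 days.

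The Ang II effect at 14 days was then set against that at 7 days. limma called 0 of 5 members for this difference, against 0% of all rows, and edgeR and DESeq2 called 0 members. An unadjusted p under 0.05 was reached by 1 member and by 25 rows. That member was miR-29a-5p, with log2 fold changes of -0.36 at 7 days and 0.13 at 14 days and a difference of 0.48 ± 0.17 in log2 fold change (limma, 95% interval 0.14 to 0.83). It ranked 3 of 543 rows by p, with an adjusted p = 0.804 (limma). Every 7-day library had a mouse number beginning with 27 or 28. Numbers beginning with 26 or 30 occurred only at 14 days, those with 30 only with Ang II. Time and mouse-number series therefore cannot be fully told apart in this difference.

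Between the sham groups, 14-day against 7-day, limma called 0 of 5 members, against 0% of all rows, with 0 members and 18 rows at an unadjusted p under 0.05. edgeR and DESeq2 called 0 members and 1 row each. The members' log2 fold changes ran from -0.06 for miR-29a-5p to 0.18 for miR-29c-5p, each with a 95% interval that included 0. The difference was smaller than its SE for miR-29a-3p, 0.02 ± 0.28, and little more than its SE for miR-29c-5p, 0.18 ± 0.15. Under 2 other settings, the mouse-number series as a term and the PC1-low libraries alone, miR-29a-3p and miR-29c-3p changed sign. Most 14-day sham libraries are of series 26, which no 7-day library is, so time and series cannot be fully told apart here either.

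The spread of miR-29a-3p inside each group was wider than the differences between Ang II and sham. Within 14-day sham alone, the highest miR-29a-3p library was 3.86 times the lowest. This spread followed PC1, which was computed without the family. miR-29a-3p ran from 974 to 2272 RPM in the 19 PC1-high libraries, with a median of 1301 RPM, and from 513 to 861 RPM in the 13 PC1-low libraries, with a median of 689 RPM.

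All 19 PC1-high libraries were above all 13 PC1-low libraries for miR-29a-3p, and so also inside each of the 4 groups. The libraries were sorted by the other miRNAs, and how many of the 543 rows separated fully was not counted. Full separation therefore cannot be called a trait particular to miR-29a-3p. The means were 1362 ± 325 RPM and 692 ± 114 RPM (SD, n = 19 and 13), a ratio of 1.97. miR-29c-3p averaged 201 ± 47.0 RPM in PC1-high and 133 ± 21.1 RPM in PC1-low libraries, a ratio of 1.51, with 13 of 19 above every PC1-low library. miR-29b-3p averaged 65.6 ± 12.1 RPM and 58.7 ± 9.51 RPM, a ratio of 1.12, with wide overlap.

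Inside groups, the log2 difference between PC1-high and PC1-low libraries was 0.95 for miR-29a-3p, the 25th highest of 543 rows. It was 0.57 for miR-29c-3p (57th), 0.14 for miR-29b-3p (217th), 0.20 for miR-29a-5p (187th) and -0.18 for miR-29c-5p (379th), beside a median of 0.05 over all rows. These are descriptions of libraries sorted by the other miRNAs, without a test. Column totals moved with the same axis, averaging 1.04 ± 0.119 M in PC1-high and 1.48 ± 0.152 M in PC1-low libraries. The median summed marker levels of several cell types also differed along it, not all in the same direction. The part of these totals and marker levels in the miR-29 levels was not tested. The size of the split depends on the scaling. As shares of a library's reads, miR-29a-3p averaged 0.168% ± 0.0536 in PC1-high and 0.0564% ± 0.0105 in PC1-low libraries, again without overlap. On that scale miR-29b-3p also separated more, with 0.00808% ± 0.00245 in PC1-high and 0.00477% ± 0.000731 in PC1-low libraries.

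**Figure D4:**
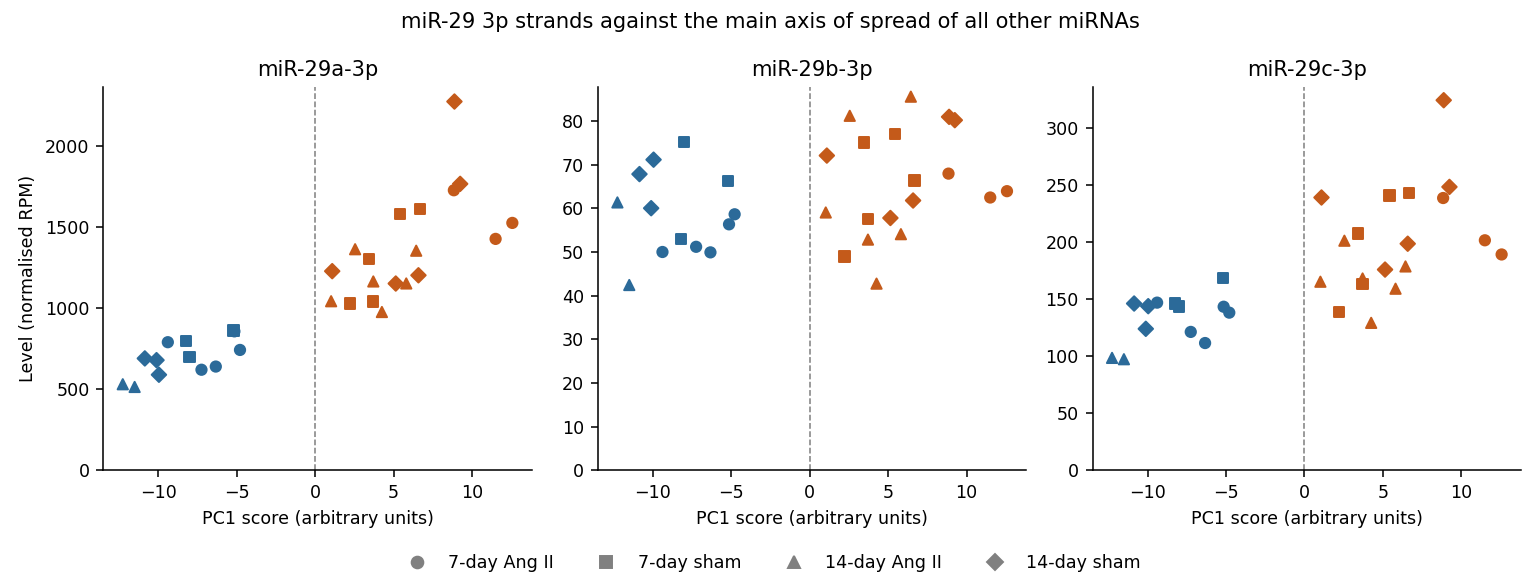
Level of each miR-29 3p strand (y axis, normalised RPM, starting at 0) against the library's score on the first principal component of all other tested miRNAs (x axis, arbitrary units); each of 32 points is a library, its shape gives the group and its colour the sign of the score. miR-29a-3p rises from the left to the right side with no overlap (513 to 861 against 974 to 2272 RPM), miR-29c-3p overlaps partly and miR-29b-3p widely. The share of all rows that separate without overlap was not counted.

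Since the members share a library's scaling, ratios between them do not depend on it. miR-29a-3p over miR-29b-3p was 15.8 to 28.1 in PC1-high libraries and 8.27 to 15.8 in PC1-low libraries, meeting without overlap, with means of 20.8 ± 3.28 and 12.0 ± 2.45 (SD, n = 19 and 13). The miR-29b share of the 3p level accordingly averaged 4.10% ± 0.592 in PC1-high and 6.74% ± 1.28 in PC1-low libraries, and that of miR-29a 83.6% ± 1.41 and 78.2% ± 2.10. The family's make-up thus changed along PC1 and not only its sum.

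Between Ang II and sham the mean miR-29a share differed less than between PC1-high and PC1-low libraries. At 7 days miR-29a-3p made up 81.6% ± 2.93 with Ang II against 81.4% ± 2.90 in sham, and at 14 days 82.2% ± 2.94 with Ang II against 80.3% ± 4.09 in sham (SD, n = 8 each). The miR-29c share at 7 days was 13.4% ± 1.71 with Ang II against 13.6% ± 1.498 in sham. At 14 days it was 12.6% ± 1.40 with Ang II and 14.3% ± 2.14 in sham. These SDs describe the spread of single libraries, not the uncertainty of a difference between means, and the differences in share were not tested.

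**Figure D5:**
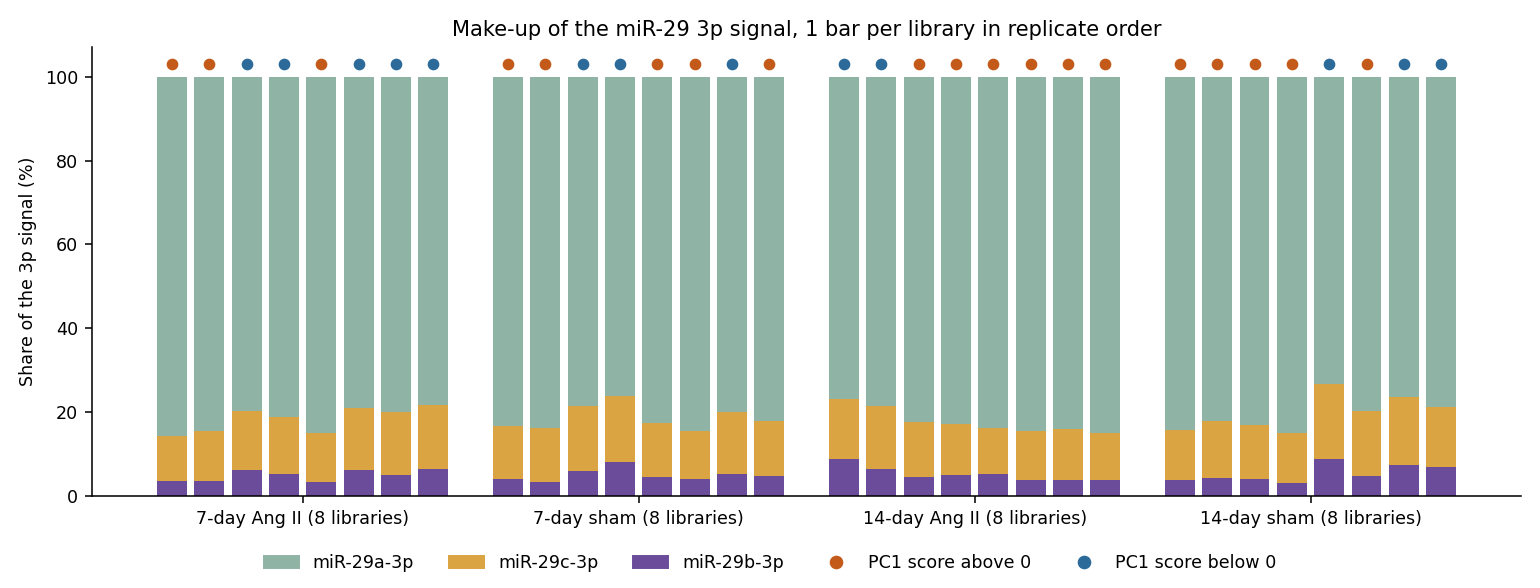
Share of the summed miR-29 3p level (y axis, percent) held by miR-29a-3p, miR-29c-3p and miR-29b-3p, 1 bar per library in replicate order within the 4 groups (x axis); the dot over each bar gives the sign of the PC1 score. miR-29a-3p holds 73.2 to 85.7% in every library, and the miR-29b-3p share reaches 5.29% at most in PC1-high libraries and is at least 5.07% in PC1-low ones.

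The ratio of the arms differed between hairpins. Summed over libraries, the 3p strand had 571 times the reads of the 5p strand for miR-29a, 34.8 times for miR-29c and 90.6 times for miR-29b, where both 5p strands were added. For miR-29a the 7-day ratio was 721 with Ang II against 544 in sham, and the 14-day ratio 457 with Ang II against 659 in sham, so it was higher with Ang II at 7 days and lower at 14 days. For miR-29c the 7-day ratio was 37.2 with Ang II against 34.7 in sham, and the 14-day ratio 33.5 with Ang II against 34.4 in sham. These ratios rest on 197 to 382 reads of miR-29a-5p and 574 to 755 reads of miR-29c-5p per group and were not tested.

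The members were not equally alike across the 32 libraries. After group means were subtracted, the Pearson correlation of log2 levels was 0.95 between miR-29a-3p and miR-29c-3p, which come from different chromosomes and differ by a single base. It was 0.91 within the PC1-high and 0.87 within the PC1-low libraries. Between miR-29b-3p and miR-29c-3p it was 0.64, and between miR-29a-3p and miR-29b-3p 0.51. Between the arms of a hairpin it was 0.51 for miR-29a-3p with miR-29a-5p and -0.38 for miR-29c-3p with miR-29c-5p. All are descriptions over libraries that share a scaling and the PC1 axis.

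Among 277 other rows that averaged 10 RPM or more, those most like miR-29a-3p by the same correlation were miR-5097 (0.93), miR-5099 (0.92) and miR-125b-5p (0.92). For miR-29c-3p they were miR-5099 (0.87), miR-5097 (0.83) and miR-27a-3p (0.83). For miR-29b-3p they were miR-99a-3p (0.68), miR-136-5p (0.65) and miR-872-5p (0.64). The correlations of miR-29a-3p and miR-29c-3p with the PC1 score itself were 0.93 and 0.83, so likeness to these strands and position on PC1 overlap.

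Other miRNAs linked to tissue fibrosis were set beside the family. Of 8 listed as antifibrotic in the literature, 8 were tested. At 7 days limma called none, with a median log2 fold change of -0.14. At 14 days 1 was lower, beside 2.03% of all rows, and 7 did not pass, with a median of -0.21. It was miR-101a-3p, which averaged 1324 ± 255 RPM with Ang II against 1739 ± 164 RPM in sham, a log2 fold change of -0.41 ± 0.12 (SE, limma, adjusted p = 0.0403). Its reads may be shared with the near copy miR-101c. Under library totals alone it was at -0.14 (limma, adjusted p = 0.653), and the call was lost with 7 of 16 libraries left out in turn.

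Averaged over both times, miR-101a-3p (-0.29, limma, adjusted p = 0.0379) and miR-30c-5p (-0.31, adjusted p = 0.0222), which targets connective tissue growth factor, were lower, beside 2.03% of all rows, and the other 6 did not pass. miR-133a-3p, a muscle miRNA and the first of the list, was at -0.12 at 7 days and -0.22 at 14 days (adjusted p = 0.953 and 0.333).

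Of 8 listed as profibrotic, 7 rows were tested, since miR-199a-3p and miR-199b-3p had equal reads and were merged here. At 7 days none passed and all 7 were above 0, with a median of 0.19. At 14 days 1 was higher, beside 4.42% of all rows: miR-199a-5p, with 817 ± 173 RPM with Ang II against 602 ± 47.0 RPM in sham (log2 fold change 0.42 ± 0.11, limma, adjusted p = 0.0174), and the list median was 0.39. miR-21a-5p, known as a fibroblast and injury miRNA, passed for the average effect (0.49 ± 0.14, limma, adjusted p = 0.0342), as did miR-199a-5p (0.30 ± 0.07, adjusted p = 0.0137), beside 5.34% of all rows called higher. With library totals alone none of the calls of miR-101a-3p, miR-30c-5p and miR-199a-5p passed, without a change of sign, and the average-effect calls of miR-21a-5p and miR-101a-3p were each lost with 9 of 32 libraries left out in turn. That of miR-101a-3p was also lost under 5 of 12 other settings.

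Markers of other cells were present beside these comparisons. At 14 days the summed level of 3 red blood cell miRNAs ran from 982 to 1890 RPM with Ang II and from 261 to 1464 RPM in sham. Of them 2, miR-451a and miR-144-5p, were higher, beside 4.42% of all rows. Those calls were lost with 4 and 11 of 16 libraries left out in turn and under 3 and 7 of 13 other settings. The sum of 6 epithelial miRNAs ran from 1117 to 1747 RPM with Ang II and from 1333 to 4996 RPM in sham. Of them 1, miR-203-3p, was lower, beside 2.03% of all rows. That call was lost with 0 of 16 libraries left out in turn and under 3 of 13 other settings. At 7 days 1 of 4 contractile smooth muscle miRNAs, miR-145a-3p, was lower with Ang II (log2 fold change -0.60 ± 0.13, limma, adjusted p = 0.0280). It was the one row called at that time (0.184% of all rows), a call lost with 10 of 16 libraries left out in turn. Its mean was 895 RPM in 7-day sham and 596 RPM in 7-day Ang II. In 14-day sham it was 604 RPM and in 14-day Ang II 560 RPM, so 7-day sham stood apart. The 14-day sham group was at -0.56 ± 0.13 against 7-day sham (limma, adjusted p = 0.0817). At 14 days Ang II was at -0.12 against sham (limma, adjusted p = 0.598). The defining liver miRNA, miR-122-5p, was at 5.83 RPM or less in every library. The part of these other cells in the miR-29 values was not tested.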

How the data were processed

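The authors deposited 1 table, a signal value for each miRNA row in each library, and named no unit. The submitters' processing notes list, without roles, STAR 2.3.1, edgeR 3.6.8, R 3.2.3, FastQC, bcl2fastq 1.8.4 and the build mm10. The annotation, the multi-mapping rule and the scaling method are not given in the sources used here. Whole reads were recovered: 100% of the deposited signal values were whole multiples of a library step, within 0.001 read. The columns summed to 0.727 to 1.67 M, which simple division by the library total would not give.

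The table had 1722 rows, 364 of them at 0 throughout, and 1403 names, 114 of them repeated. The highest-mean row of each name was kept and equal rows merged. limma-trend (limma 3.58.1, R 4.3.3) was fitted to log2(value + 1) of the 543 rows with a mean of at least 1, in 1 model over the 4 groups, with two-sided Benjamini-Hochberg adjusted p under 0.05 as the call. Fold changes on this scale understate the change of rows with few reads. On recovered reads the edgeR 4.0.16 quasi-likelihood test called 1 row at 7 days and 55 at 14 days, and DESeq2 1.42.0 called 1 and 61. The fitting steps were tested on simulated data.

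The members and lists were chosen with earlier results of these data known. Named rows were all members, the 3 rows most like each 3p strand, and, of each fibrosis list, the first and those called; the cell type markers named were chosen after their values were seen. Alternatives covered filters, pseudocounts of 0.5 and 10, TMM, RLE and library totals, voom with quality weights, the compared groups alone, the mouse-number series, the sign of PC1 and each library left out. Sequences and hairpin coordinates are from RefSeq (GRCm38.p6), gene overlaps from GENCODE on the same assembly.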

Additional observations from a re-analysis of the deposited data

Results flagged for a closer look

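One result stood apart from its group. The highest of the 8 7-day sham libraries for miR-29a-5p, at 3.03 RPM, had a gap to the next library that was wider, relative to the group's range, than Dixon's 95% critical value for 8 samples. It was a PC1-high library. Of 28 combinations of member and group examined this was the single one. Chance alone flags about 1 in 20 combinations, so a single flag is no more than chance gives. Leaving it out made the 7-day log2 fold change of miR-29a-5p -0.30 (limma, adjusted p = 0.639), beside -0.36 with it (adjusted p = 0.373).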

How the results depend on the processing

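No paired analysis was possible because the mouse numbers are unique to each library and the replicate numbers only follow deposition order. Of the members' log2 fold changes, 345 of 370 under other settings and 542 of 560 with a library left out kept their direction and their side of the threshold. The members called stayed at 0 in all 112 fits that left out a library. They became 1 at 14 days and 2 for the average effect with the PC1 term, and 1 for the average effect with the mouse-number series term. The PC1 term was built from these same libraries, so counts with it are descriptions.

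Signs turned as follows, and the causes were not tested. At 7 days miR-29a-3p was at 0.11 with the PC1 term, 0.27 within PC1-high libraries and 0.054 within series 27, and miR-29b-3p (0.014) and miR-29c-3p (0.10) turned within PC1-high libraries. With library totals alone, miR-29a-3p was at 0.088 and miR-29b-3p at 0.035 at 14 days, miR-29a-5p at 0.0041 for the average effect, and for the difference of effects, whose median over all rows was then 0.20, miR-29a-3p was at 0.19, miR-29b-3p at 0.15, miR-29c-3p at 0.012 and miR-29c-5p at 0.0897. The difference also turned for miR-29a-3p with voom (0.16), for miR-29b-3p with the series term (0.061) and for miR-29c-5p within PC1-high (0.012) and PC1-low (0.066) libraries. Between the sham groups, the series term gave -0.27 for miR-29a-3p, -0.0047 for miR-29b-3p and -0.14 for miR-29c-3p, and PC1-low libraries gave -0.27 and -0.15 for miR-29a-3p and miR-29c-3p. With a library left out, the difference of effects for miR-29a-3p ran from -0.16 to 0.12, and the sham difference ran from -0.13 to 0.14 for miR-29a-3p and from -0.0035 to 0.19 for miR-29c-3p.

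The number of all rows called moved more, and library totals alone shifted its split, to 22 higher and 1 lower at 14 days (24 and 11 as deposited) and 23 and 0 for the average effect (29 and 11). At 7 days (1) it was 4 with voom and 0 with library totals, the compared groups alone, PC1-high libraries, series 27 and series 28. At 14 days (35) it was 17 with no filter, 23 with library totals, 55 with edgeR, 61 with DESeq2, 15 with voom, 3 with the compared groups alone, 80 with the PC1 term, and 0 within PC1-high libraries, PC1-low libraries and series 26. For the average effect (40) it was 23 with library totals, 70 with DESeq2, 129 with the PC1 term, 12 within PC1-high and 0 within PC1-low libraries. Between the sham groups (0) it was 1 with a minimum of 10, TMM, edgeR, DESeq2, voom, the compared groups alone, the series term and PC1-low libraries. With a library left out it ran from 0 to 1 at 7 days, from 21 to 42 at 14 days and from 0 to 1 between the sham groups. Depth limits the 5p strands most, since miR-29a-5p rests on 8 to 109 reads per library.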
